A study of Mus musculus with 4 samples.

Results

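The genes described here are the inhibitors of cyclin-dependent kinases (CDKs) together with p53 (Trp53), its ubiquitin ligase Mdm2 and the retinoblastoma gene Rb1, chosen by name. Each was read from the array row whose platform annotation names that gene alone, and from the row with the highest mean where a gene had several. Of the 10 genes listed, 8 were read in this way, out of 19938 genes in all. The row naming Cdkn1a (p21) names another gene as well, and no row names Trp53, so neither gene is analysed here.

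The arrays measured total RNA of cultured primary lung fibroblasts from mice of 3 to 4 weeks of age. The 2 samples labelled KrasD12, A and B, come from 1 line, numbered 493, which the series text calls SKY. The 2 wild-type (WT) samples, A and B, come from 1 line numbered 494. Both lines grew out of collagenase-digested lung in serum-containing medium without any treatment, and the labels name no further allele or agent in either. With 1 line per genotype, the effects of the allele and of the line cannot be told apart, and the values read transcript levels rather than the allele. No label ties A and B to different cultures, so every p-value below measures only the spread between the samples of a line, which may be technical.

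CDK inhibitors hold back the cell cycle in G1 phase. The INK4 proteins (Cdkn2a, Cdkn2b, Cdkn2c, Cdkn2d) bind the kinases CDK4 and CDK6, while the CIP/KIP proteins (Cdkn1a, Cdkn1b, Cdkn1c) bind cyclin-CDK complexes more widely. When CDK4, CDK6 and CDK2 are inhibited, the RB protein stays unphosphorylated and keeps E2F factors from switching on S-phase genes. The Cdkn2a locus also encodes ARF, which blocks MDM2 and so stabilises p53, and p53 in turn induces Cdkn1a and Mdm2. In cultured fibroblasts the pathway is known for its part in senescence, a lasting arrest of the cell cycle.

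The start regions of 5 transcripts are shown because the results turn on these genes and because Cdkn2a has 2 starts that its single array row does not separate. They are the 250 bases before each start, from RefSeq on GRCm38.p6, written in the direction of transcription. Capitals mark matches, on either strand, to the E2F motif (TTTCCCGC, TTTCGCGC, TTTGCCGC or TTTGGCGC), the GC box (GGGCGG), the CCAAT box (CCAAT), the TATA box (TATAAA) and the FOXO motif (TTGTTTAC).
Cdkn2b, chr4:89311033-89311282, - strand: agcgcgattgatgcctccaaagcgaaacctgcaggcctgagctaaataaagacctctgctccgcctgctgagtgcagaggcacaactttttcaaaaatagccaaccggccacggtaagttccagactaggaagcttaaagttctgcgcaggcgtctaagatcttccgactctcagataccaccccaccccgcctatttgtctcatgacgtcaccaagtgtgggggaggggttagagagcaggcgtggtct
Cdkn2a, upstream start (Arf), chr4:89294620-89294869, - strand: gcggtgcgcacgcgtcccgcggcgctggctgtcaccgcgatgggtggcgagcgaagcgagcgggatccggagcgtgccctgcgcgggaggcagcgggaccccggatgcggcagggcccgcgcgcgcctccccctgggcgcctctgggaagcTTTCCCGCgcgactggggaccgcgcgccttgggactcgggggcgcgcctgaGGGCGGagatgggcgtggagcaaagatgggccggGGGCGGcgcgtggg
Cdkn2a, downstream start (Ink4a), chr4:89282193-89282442, - strand: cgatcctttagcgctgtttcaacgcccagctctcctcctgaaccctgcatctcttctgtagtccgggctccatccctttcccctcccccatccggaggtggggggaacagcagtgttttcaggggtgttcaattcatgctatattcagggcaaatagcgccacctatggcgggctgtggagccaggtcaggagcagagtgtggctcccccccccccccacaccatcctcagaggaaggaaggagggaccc
Cdkn1b, chr6:134920151-134920400, + strand: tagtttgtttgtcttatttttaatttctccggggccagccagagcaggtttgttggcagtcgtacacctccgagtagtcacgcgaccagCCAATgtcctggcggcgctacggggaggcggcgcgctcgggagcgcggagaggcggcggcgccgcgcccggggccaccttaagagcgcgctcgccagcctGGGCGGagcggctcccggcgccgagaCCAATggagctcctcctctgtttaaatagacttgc
Cdkn2c, upstream start, chr4:109666757-109667006, - strand: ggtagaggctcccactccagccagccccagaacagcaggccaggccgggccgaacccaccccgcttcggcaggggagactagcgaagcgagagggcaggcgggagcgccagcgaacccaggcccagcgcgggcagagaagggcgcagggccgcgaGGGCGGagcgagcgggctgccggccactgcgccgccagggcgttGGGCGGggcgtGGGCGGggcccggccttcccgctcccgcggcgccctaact

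Sequences were found for 8 of the 10 listed genes, with 11 starts. The upstream Cdkn2a start, from which Arf is transcribed, held the only E2F match among these 11, and 1.9% of the 32851 start regions searched held one. The neighbouring Cdkn2b start and the downstream Cdkn2a start held no match to any of the 5 motifs. Cdkn1b had 1 GC box and 2 CCAAT boxes, and the upstream Cdkn2c start had 3 GC boxes. GC boxes occurred in 32.7% and CCAAT boxes in 33.8% of the start regions searched, TATA boxes in 12.4% and FOXO motifs in 1.1%. The search left out the start regions of a single chromosome and windows shorter than 250 bases. The share of G and C was 78.4% before the Arf start, 60.0% before the Ink4a start and 53.6% before Cdkn2b. The median of the start regions searched was 52.4%. These matches describe letters in the window and were not set against any binding data.

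Among the 8 genes, Cdkn1b, Cdkn1c, Cdkn2b and Mdm2 were higher in KrasD12 than in WT fibroblasts, and Cdkn2c and Rb1 were lower. All values are deposited log2 values, so a difference of 1 is 2-fold, and every difference is KrasD12 minus WT from limma with its moderated standard error. The words rose and fell are kept for genes with a limma Benjamini-Hochberg adjusted p under 0.05 over all genes under each of 2 scalings, with 1 direction: the values as deposited, and the same values quantile normalized, so that the 4 columns share 1 distribution. Both scalings were used because the deposited columns of the lines lay apart: the KrasD12 columns had medians of 6.24 and 6.26, the WT columns 5.90 and 5.91. By this rule 4 of the 8 genes rose, against 22.4% of all genes, and 2 fell, against 11.5%. As deposited, 5 were called higher (50.1% of all genes) and 2 lower (11.9%). After quantile normalization 4 were called higher (22.5%) and 2 lower (24.4%). The shares that rose and fell varied with level. Of genes with means between 8 and 9, where Cdkn2c and Rb1 lay, 25.99% rose and 18.2% fell.

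The A and B values of the 2 lines did not overlap for any of the 8 genes on the deposited values, and for 7 of the 8 after quantile normalization. The same was true of 83.0% and 75.1% of all genes, so separation of the lines is close to the background for these genes. The median difference of the 8 was 0.32 deposited and 0.27 after quantile normalization, beside 0.26 and 0.00 (-0.0038) over all genes. All 8 lay above 5.15 in every sample, the dim level set by olfactory and vomeronasal receptor rows. Of all 19938 genes, 13824 had a mean above it.

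**Figure D1:**
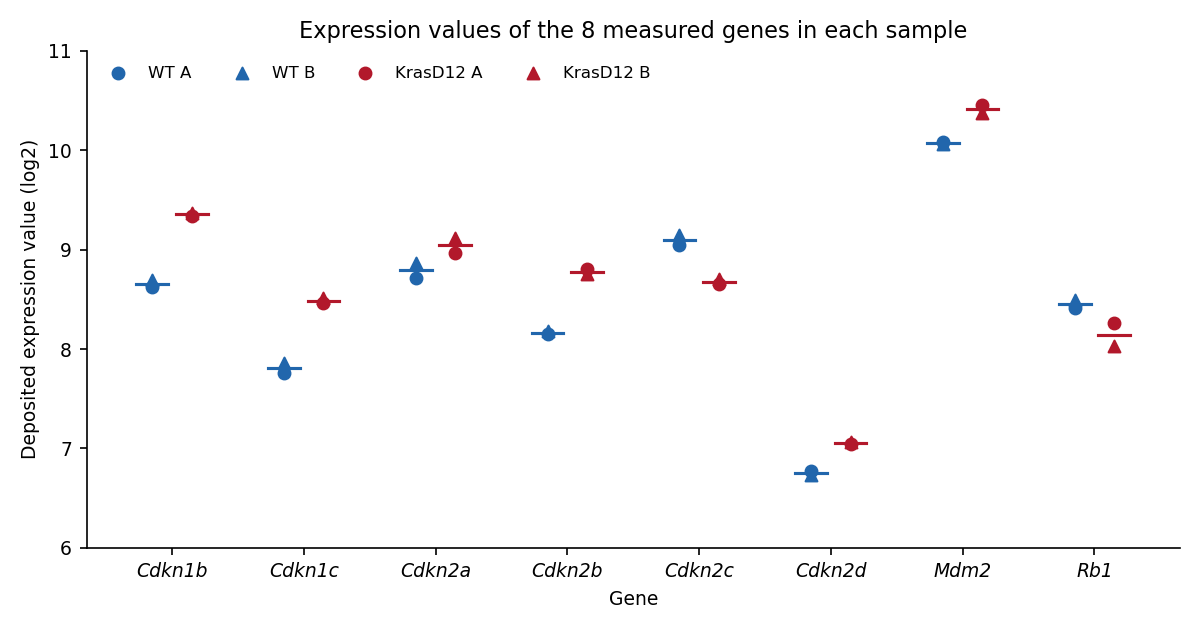
Deposited log2 expression values of the 8 genes (vertical axis) in each of the 4 samples, circles for sample A and triangles for sample B, blue for WT and red for KrasD12, with a bar at each group mean of 2 samples. Levels of different genes are not comparable on an array; within a gene the WT and KrasD12 points do not overlap, and among the 8 genes the gap is widest for Cdkn1b (0.65) and narrowest for Cdkn2a (0.10).

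Of the CIP/KIP inhibitors, both measured genes rose. Cdkn1b encodes p27, which restrains cyclin E-CDK2 and accumulates in resting cells. Its values were 9.34 and 9.37 in KrasD12 and 8.62 and 8.69 in WT. The KrasD12 samples were the higher ones by at least 0.65, far more than the distance between A and B in either line. The difference was 0.70 ± 0.07 (95% interval 0.53 to 0.87, n = 2 per group, limma adjusted p = 0.0012), or 1.62-fold, and 0.61 after quantile normalization. This was the largest absolute difference among the 8 genes, at percentile 87.2 of the differences of all genes as deposited and at percentile 94.7 with quantile normalization.

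A second row annotated to Cdkn1b alone did not show this rise. It read 7.71 and 7.18 in KrasD12 and 7.23 and 7.32 in WT, so the lines overlapped and the KrasD12 samples differed from each other by more than the groups did. Its difference was 0.17 ± 0.18 deposited (limma adjusted p = 0.432, fitted over every row) and -0.07 after quantile normalization. With the mean of both rows, Cdkn1b differed by 0.44 (limma adjusted p = 0.0148), and after quantile normalization it was not called (adjusted p = 0.0661). Which of the rows reads the p27 message better was not tested.

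Cdkn1c encodes p57, an imprinted inhibitor expressed from the maternal allele in many mesenchymal tissues. It read 8.46 and 8.51 in KrasD12 and 7.76 and 7.86 in WT. Both KrasD12 samples lay at least 0.60 above both WT samples. The rise was 0.68 ± 0.07 (95% interval 0.49 to 0.86, limma adjusted p = 0.00149), or 1.6-fold, and 0.52 after quantile normalization (adjusted p = 0.00278). In the limma test for a change beyond 1.2-fold, both calls stayed (adjusted p = 0.00779 deposited and 0.04885 quantile).

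The INK4 genes did not move together: of the 4, Cdkn2b rose and Cdkn2c fell, while Cdkn2a and Cdkn2d did not pass on both scalings. Cdkn2b encodes p15, an INK4 inhibitor known to be induced by TGF-beta. Its values were 8.80 and 8.75 in KrasD12 and 8.15 and 8.18 in WT, with the groups apart by 0.57 and A and B within 0.05 of each other. The rise was 0.61 ± 0.07 (95% interval 0.44 to 0.78, limma adjusted p = 0.00154), or 1.53-fold, and 0.48 after quantile normalization. In the limma test for a change beyond 1.2-fold, the deposited call stayed (adjusted p = 0.00988) and the quantile call was lost (adjusted p = 0.0591).

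Cdkn2a, the neighbour of Cdkn2b, encodes both p16Ink4a and p19Arf from separate first exons. The row is annotated to transcripts of both forms, so its values are a sum over INK4A and ARF messages that cannot be told apart here. They were 8.97 and 9.12 in KrasD12 and 8.71 and 8.87 in WT. The groups were separated by 0.10, less than the distance of 0.15 and 0.16 between A and B. The difference of 0.26 ± 0.09 had a 95% interval of 0.02 to 0.49 and missed the threshold (limma adjusted p = 0.0587), and it was 0.17 after quantile normalization (adjusted p = 0.181). The call depended on the model: among genes above the dim level and with a variance trend the deposited adjusted p was 0.0448 and 0.0189, and with columns centred on their medians the sign turned (-0.09). The interval holds larger increases than the one measured, so these values do not show that Cdkn2a was equal in the lines.

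The protein-coding genes next to the pair along the chromosome gave the following values. Mtap, which encodes an enzyme of methionine salvage, read 7.98 and 8.03 in KrasD12 and 7.71 and 7.75 in WT. Its difference was 0.28, called on the deposited values only (0.09 after quantile normalization). Dmrta1, on the other side of Cdkn2b, rose by 0.70 deposited and 0.30 after quantile normalization, with all of its values (3.80 to 4.61) below the dim level. Among Cdkn2a, Cdkn2b and the 2 nearest genes on either side, Cdkn2b was the only one above the dim level that passed on both scalings.

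Cdkn2c, which encodes p18, an INK4 protein also under E2F control, was lower in KrasD12. Its values were 8.65 and 8.70 in KrasD12 and 9.05 and 9.15 in WT, a gap of 0.35 in the opposite direction to the other called inhibitors. Cdkn2c fell by 0.43 ± 0.07 (95% interval -0.61 to -0.24, limma adjusted p = 0.00536), a change of 1.34-fold, and stood at -0.52 after quantile normalization (adjusted p = 0.00285). It stood at percentile 6.4 of all differences as deposited and at percentile 10.1 with quantile normalization. When limma tested for a change beyond 1.2-fold, the deposited call was lost (adjusted p = 0.104) and the quantile call stayed (adjusted p = 0.0486). With a sample left out, the deposited difference ran from -0.475 to -0.375.

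Cdkn2d encodes p19Ink4d, which is unrelated to p19Arf. It read 7.04 and 7.06 in KrasD12 and 6.77 and 6.73 in WT. The deposited difference of 0.30 ± 0.07 was called (limma adjusted p = 0.0118), and genes of like mean, between 6 and 7, had a median difference of 0.32. After quantile normalization the difference was 0.02 (adjusted p = 0.822) and with centred columns -0.045. Cdkn2d is therefore counted as not called on both scalings.

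**Figure D2:**
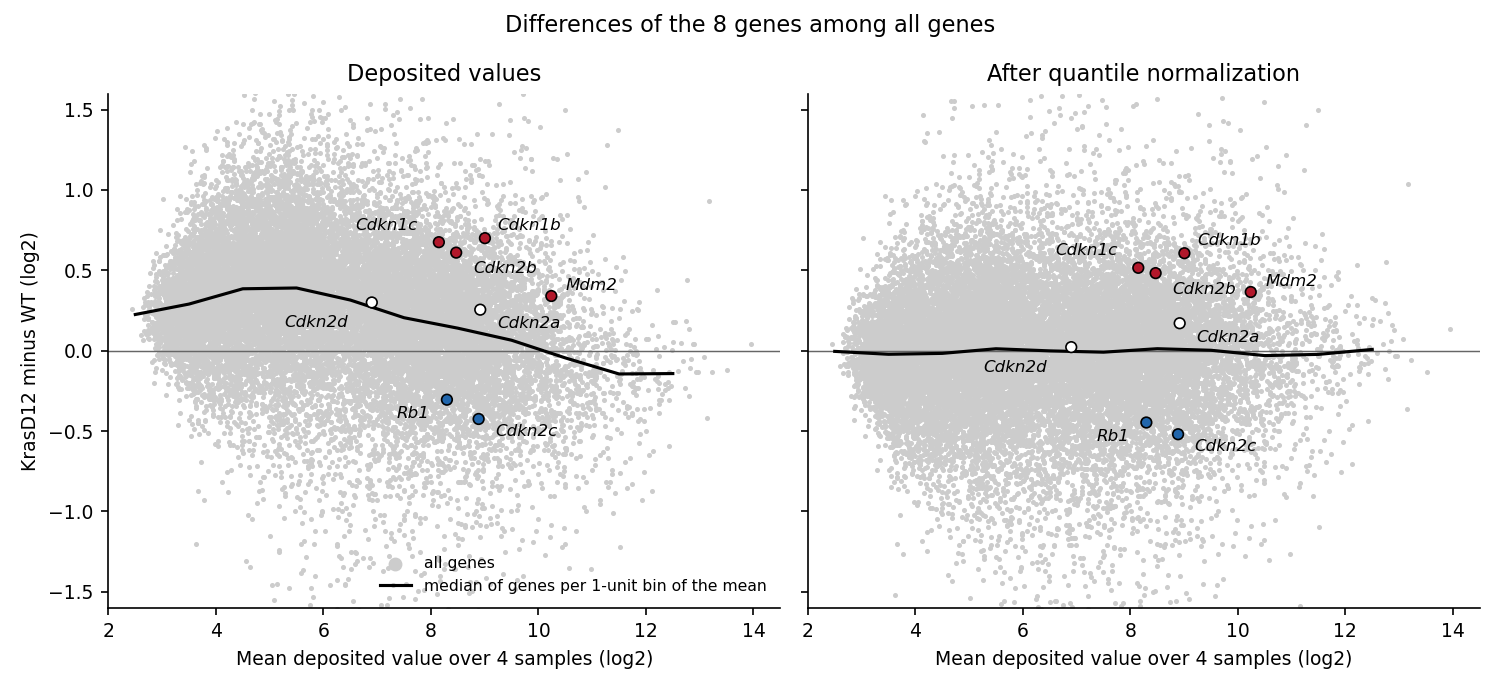
Difference between KrasD12 and WT (log2, vertical axis, limited to the range shown) against the mean of each gene (log2, horizontal axis) on the deposited values (left) and after quantile normalization (right). Grey points are all genes and the black line their median per bin of the mean; red points rose, blue points fell and open points were not called on both scalings, and Cdkn2d lies on the line in both panels.

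Mdm2, the E3 ligase that degrades p53 and is itself a p53 target, rose slightly. It read 10.45 and 10.37 in KrasD12 and 10.08 and 10.06 in WT, with the groups 0.29 apart. The rise was 0.34 ± 0.07 (95% interval 0.17 to 0.51, limma adjusted p = 0.00927), or 1.27-fold, and 0.37 after quantile normalization, while centring the columns on their medians removed it (-0.005). For genes of like mean, between 10 and 11, the median shift was -0.05 deposited and -0.03 after quantile normalization, so Mdm2 lay above its level's shift on both. Among all genes its difference stood at percentile 58.8 as deposited and at percentile 85.0 with quantile normalization. When limma tested for a change beyond 1.2-fold, Mdm2 was not called on either scaling (adjusted p = 0.332 and 0.3455).

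Rb1 encodes the pocket protein that the INK4 and CIP/KIP inhibitors keep active. Its values were 8.26 and 8.03 in KrasD12 and 8.41 and 8.49 in WT. The lines did not overlap, but the 2 KrasD12 samples lay 0.23 apart, more than the gap of 0.15 between the lines. Rb1 fell by 0.31 ± 0.10 (95% interval -0.55 to -0.06, limma adjusted p = 0.0411) and stood at -0.45 after quantile normalization (adjusted p = 0.0102). The deposited call was lost in all 4 fits that left out a sample (adjusted p from 0.0577 to 0.263) and when limma tested for a change beyond 1.2-fold (adjusted p = 0.624).

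**Figure D3:**
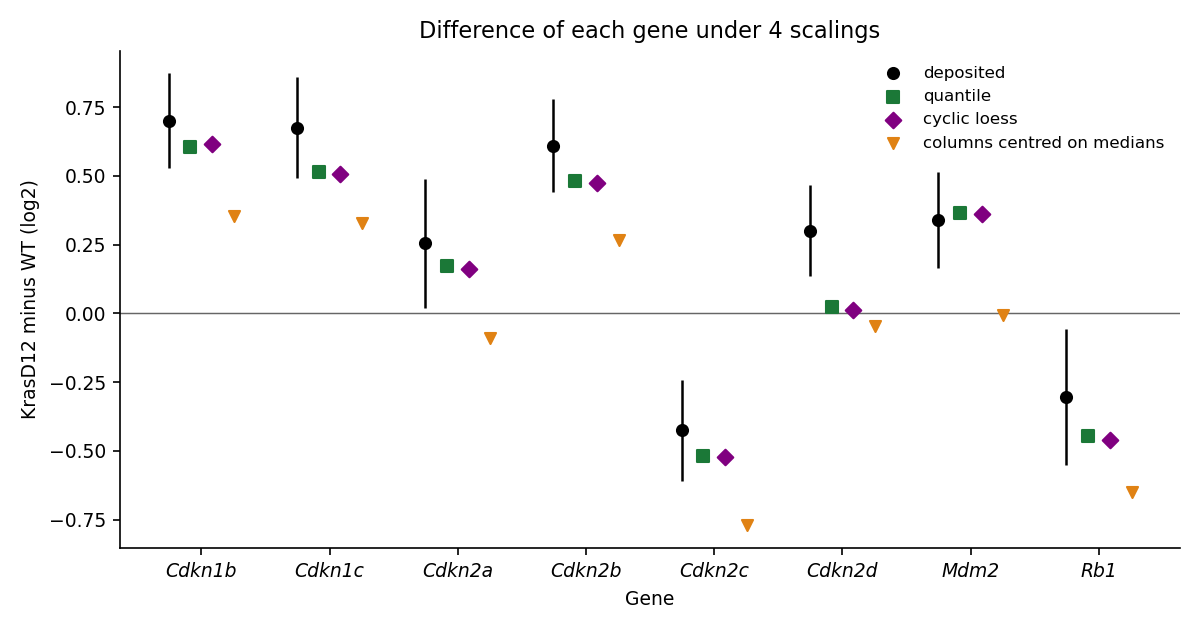
KrasD12 minus WT difference (log2, vertical axis) of the 8 genes under 4 scalings of the columns, with 95% limma intervals on the deposited values. Cdkn1b, Cdkn1c and Cdkn2b lie above 0 and Cdkn2c and Rb1 below 0 under all 4, whereas Cdkn2a, Cdkn2d and Mdm2 lie at or just below 0 with centred columns (-0.09, -0.045 and -0.005).

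Leaving out 1 sample removed many calls. Without WT A or WT B, limma called 0 of all 19938 genes on the deposited values, where 9846 and 10022 genes had an unadjusted p below 0.05 and the adjusted p went no lower than 0.0552 and 0.0530. Without KrasD12 A or KrasD12 B, 3 of the 8 genes were called higher and 0 lower, beside 4623 and 3114 of the 19938 genes called higher and 1160 and 773 lower. After quantile normalization Cdkn1b, Cdkn1c, Cdkn2b and Cdkn2c were called in all 4 fits that left out a sample, with adjusted p between 0.0297 and 0.0470. Mdm2 and Rb1 were each called in 1 of these 4, Mdm2 without KrasD12 B and Rb1 without KrasD12 A. The direction of all 8 genes was the same in every such fit on both scalings, and the deposited difference of Rb1 ran from -0.42 to -0.19.

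For the largest rise and the largest fall, the genes with the most similar values were sought among those above the dim level, by Euclidean distance between the 4 deposited values centred on each gene's mean. Cuedc1 (distance 0.0166), Ssbp3 (0.0173) and Kmt2b (0.0218) were closest to Cdkn1b, with differences of 0.70, 0.71 and 0.72. Closest to Cdkn2c were Slc43a2 (0.0100), Gpcpd1 (0.0166) and the cytoskeletal actin gene Actb (0.0260), at -0.43, -0.42 and -0.42. With 4 samples in 2 lines this likeness is set almost wholly by the difference between the lines.

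The other genes of the pathway were taken from lists of 8 functional groups. Of all genes 22.4% rose and 11.5% fell, and each list's counts are read against these shares. Falls were more frequent at higher levels, 14.74% for means between 7 and 8 and 18.2% between 8 and 9. The inhibitors' targets went both ways: of 16 measured cyclins, CDKs and their activators, 3 rose and 4 fell, with a median of -0.03 deposited and -0.16 after quantile normalization. Cdk6, one of the kinases bound by the INK4 proteins, fell (-1.35 ± 0.06, limma adjusted p = 0.000326), reading 8.01 in both KrasD12 samples and 9.35 and 9.36 in the WT samples. Ccnd1, a D-type cyclin that partners it, rose by 0.55 (limma adjusted p = 0.00186), and was not called with centred columns (0.205, adjusted p = 0.0511). The other D-type cyclins, Ccnd2 (-0.115) and Ccnd3 (-0.11), named after their values were seen, were not called on either scaling. The CDK-activating phosphatase gene Cdc25b rose by 0.76. Ccnh, chosen for mention after its value was seen, was the remaining rise (0.34, and -0.005 with centred columns). Ccne1 (-0.47), Ccna2 (-0.35) and Ccne2 (-0.28), named on the same basis, were the other falls, and the mean of Ccne2 lay below the dim level. Cdk4 (-0.03) and Cdk2 (-0.03) were not called.

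Of the 12 genes of pocket proteins, E2F and DP factors, none passed on both scalings. On the deposited values 5 were called higher and 0 lower, and after quantile normalization 0 higher and 1 lower. E2f8 (0.34 deposited, -0.06 after quantile normalization) and Tfdp2 (0.30 and 0.11) had the largest deposited differences, and the mean of E2f8 lay below the dim level. Rbl1 and Rbl2, the relatives of Rb1, stood at -0.02 and 0.28 deposited and at -0.34 and 0.20 after quantile normalization.

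Of 23 E2F-driven S-phase genes, 7 fell and 3 rose, beside 11.5% and 22.4% of all genes. Rrm2, the inducible subunit of ribonucleotide reductase, fell (-1.12 ± 0.07, limma adjusted p = 0.000494), as did the methylation maintenance factor gene Uhrf1 (-0.81) and the primase subunit gene Prim1 (-0.69). The 3 that rose, named after their values were seen, were the helicase genes Mcm2 (0.62) and Mcm4 (0.48) and their partner Gins2 (0.48). With centred columns Mcm4 (0.135) and Gins2 (0.13) were not called. The median was 0.13 deposited and -0.21 after quantile normalization. The part of cell-cycle distribution in the differences of the inhibitors was not tested, and in cultures measured in bulk fewer cells expressing a gene and less RNA per cell cannot be told apart.

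Of the 32 measured targets of p53, 8 were called higher under both scalings and 2 lower, and the other 22 were not. Against the 22.4% of all genes that rose, 8 of 32 is close to the background. Ddb2, a damage-recognition protein, rose by 0.95 ± 0.13 (limma adjusted p = 0.00306), the spindle-associated Ckap2 by 0.89 ± 0.07 and the stress kinase gene Plk3 by 0.81. The falls, named after their values were seen, were those of the death receptor gene Fas (-0.66) and the nuclease gene Aen (-0.33). Ccng1, which encodes cyclin G1, stood at -0.25 deposited and -0.03 after quantile normalization, and the death gene Bbc3 at 0.43 and 0.19, so neither passed on both. The targets had a median of 0.16 as deposited and -0.02 once quantile normalized.

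**Figure D4:**
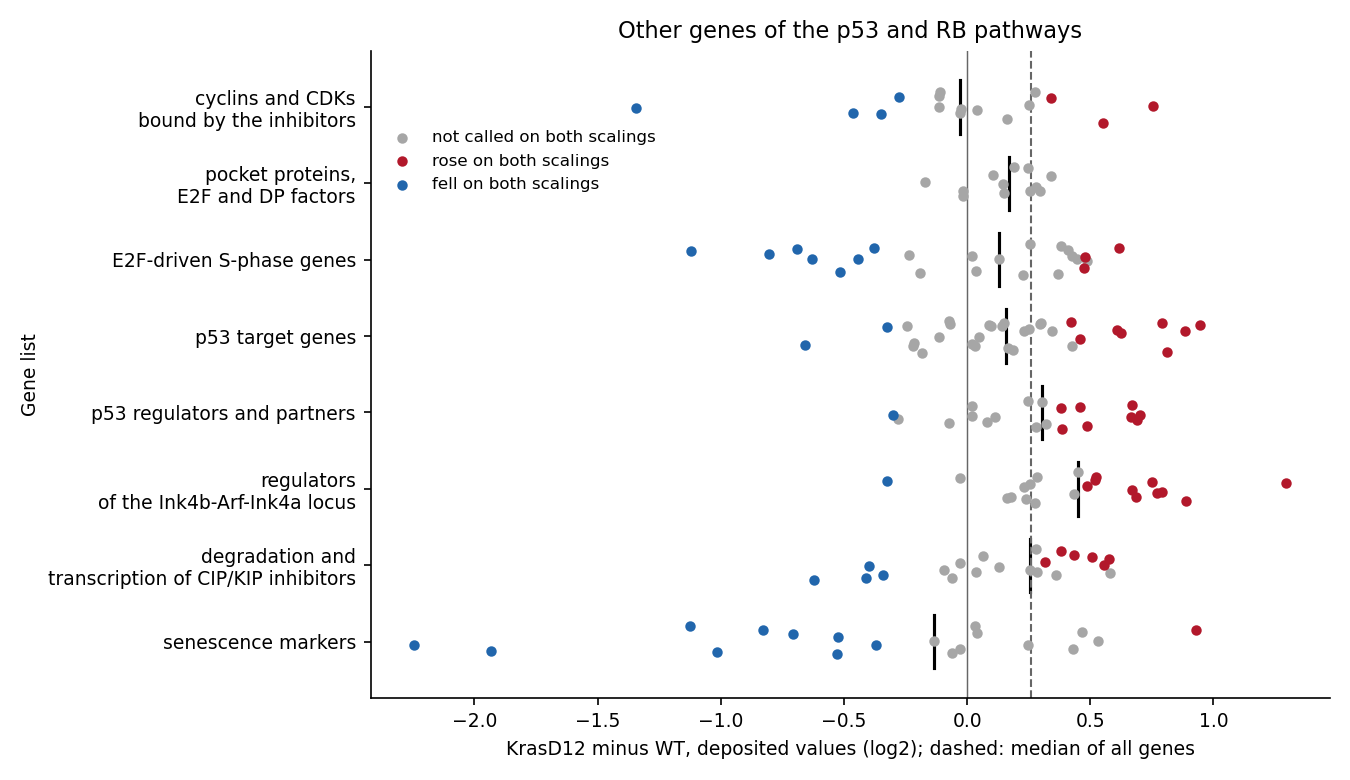
KrasD12 minus WT difference on the deposited values (log2, horizontal axis) of every measured gene in 8 lists of the p53 and RB pathways; each point is a gene, red where it rose, blue where it fell and grey where it was not called on both scalings. Black bars are list medians, from -0.14 for senescence markers to 0.45 for regulators of the Ink4b-Arf-Ink4a locus, and the dashed line is the median of all genes (0.26).

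Of 19 p53 regulators 8 rose and 1 fell, and over all genes rises (22.4%) were also more frequent than falls (11.5%). The checkpoint kinase genes Chek2 and Atm rose by 0.70 ± 0.10 and 0.69 ± 0.07 and the acetyltransferase gene Crebbp by 0.67 (limma adjusted p = 0.00281, 0.0013 and 0.00123). Mdm4, the partner of MDM2 that masks p53, rose by 0.39 (0.04 and not called with centred columns), and Hipk2, a p53 kinase, fell (-0.30), both named after their values were seen. The median of the 19 was 0.31 as deposited and 0.16 once quantile normalized.

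Regulators of the Ink4b-Arf-Ink4a locus had the highest list median, 0.45 deposited and 0.25 after quantile normalization, with 10 of 21 rising and 1 falling, beside 22.4% and 11.5% of all genes. Id1, an inhibitor of ETS and basic helix-loop-helix factors that represses Ink4a, rose by 1.30 ± 0.08 (limma adjusted p = 0.000544). The Polycomb subunit gene Phc2 rose by 0.89 and Ets1, an activator of Ink4a, by 0.79, so both repressors and activators of the locus were among the rises. Twist1, a repressor of the INK4A and ARF response, was the fall (-0.33), and the Polycomb genes Bmi1 (0.29 deposited, 0.20 quantile) and Ezh2 (0.44 and 0.25) were called on the deposited values only. Twist1, Bmi1 and Ezh2 were named after their values were seen.

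Genes that degrade or transcribe the CIP/KIP inhibitors went both ways, 6 of 21 rising and 4 falling, beside 22.4% and 11.5% of all genes. Their deposited median of 0.26 equalled that of all genes, and it was 0.08 after quantile normalization. Skp1, a core subunit of the SCF ligase that removes p27, fell (-0.62 ± 0.10, limma adjusted p = 0.00417), and the transcription factor genes Sp1 and Zbtb17 rose by 0.58 and 0.56. Skp2, the subunit that recognises p27, stood at 0.26 deposited and -0.02 after quantile normalization and was not called, and Foxo3, a transcriptional activator of Cdkn1b, rose by 0.51. Skp2 and Foxo3 were named after their values were seen. With centred columns Zbtb17 (0.21) and Foxo3 (0.16) were not called.

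Of 19 senescence markers 9 fell, 1 rose and 9 did not pass on both scalings, beside 11.5% falling and 22.4% rising among all genes. Il6 was among the falls (-0.53), with all of its values (3.14 to 3.89) below the dim level. The list mixes markers known to increase in senescent cells with some known to be lost there, and had a median of -0.14 deposited and -0.31 after quantile normalization. The collagenase gene Mmp13 (-2.25), the IGF-binding protein gene Igfbp5 (-1.935 ± 0.11) and the protease inhibitor gene Timp1 (-1.13) fell (limma adjusted p = 0.000127, 0.000462 and 0.000542). Secreted factors such as these are also made by fibroblasts that are not senescent. The nuclear marker Lmnb1, which is lost in senescent cells, was 0.47 higher on the deposited values and was not called after quantile normalization (0.28), the lysosomal Glb1 stood at -0.14, and Hmgb1, the gene that rose, at 0.93. These 3 and Il6 were named after their values were seen.

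Depth has no counterpart on these arrays, and 2 samples per group limit the precision. All 10 fibroblast markers lay above the dim level, beside 13824 of all 19938 genes. So did 4 of 8 epithelial, 3 of 6 endothelial, 4 of 7 immune and 4 of 5 mesothelial markers. Epcam, Cdh1 and Sftpc of epithelium, Pecam1, Cdh5 and Kdr of endothelium and Ptprc and Adgre1 of immune cells lay at or below it, whereas Krt8, Krt18, Krt19 and Sftpb, Tek, Tie1 and Cldn5, and Cd68, Lyz2, Csf1r and Cd3e of the same lists lay above it. Of the 10 fibroblast markers 1 rose and 4 fell, beside 22.4% and 11.5% of all genes. Of 6 smooth-muscle and myofibroblast markers 0 rose and 5 fell. The summed level of these 6, as log2 of the sum of linear values, was 10.82 to 11.03 in KrasD12 and 12.49 to 12.58 in WT. That of the fibroblast markers was 15.03 to 15.06 and 15.30 to 15.31, and that of the 8 epithelial markers 8.50 to 8.63 and 8.16 to 8.17. The endothelial sum was 8.03 to 8.07 and 7.62 to 7.77, the immune sum 8.12 to 8.13 and 8.02 to 8.08, and the mesothelial sum 8.10 to 8.20 and 8.04 to 8.17. These sums are on the deposited scale, where all genes with means between 5 and 6 had a median difference of 0.39. On both scalings 2 epithelial and 2 immune markers rose, 2 immune markers fell, and 0 endothelial and 0 mesothelial markers passed. Among all genes with means between 5 and 6, 23.91% rose and 7.02% fell. Between 11 and 12 the shares were 11.94% and 24.88%. The part of the marker shifts in the differences of the inhibitors was not tested.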

How the data were processed

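Total RNA of 4 samples was hybridised to Affymetrix mouse gene arrays. The deposited table holds log2 expression values, 1 per row and sample, running from 2.28 to 14.95, which is how the scale was read. Per the submitters' processing notes the Transcriptome Analysis Console was used. How background was corrected and arrays were normalized is not given in the sources used here, nor is the version. Of 28944 rows, 21789 carry 1 gene symbol and 21698 of these matched the GRCm38.p6 gene table, used for names and gene order; 1621 rows with several symbols and 5534 with none were left out. A gene's brightest row stood for it. The dim level is the 95th percentile of the means of 1212 receptor rows, and 13824 genes lay above it.

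Group differences were fitted with limma 3.58.1 in R 4.3.3 across all genes (lmFit, eBayes, two-sided, 2 residual degrees of freedom). The fit was also run on simulated data in which few genes changed and the columns were not shifted, unlike the data here. The genes and lists were chosen with earlier results of these data known. All 8 genes are named, with the 3 largest passing genes of each list, or the 2 largest differences where under 2 passed. Alternatives were quantile, cyclic loess and median scaling, a dim filter, the mean of rows, trend, robust, treat at 1.2-fold, the replicate letter as a block and each sample left out. Plots used matplotlib 3.10.9, tables pandas 2.3.3.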

Additional observations from a re-analysis of the deposited data

How the results depend on the processing

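Centring the columns on their medians gave 3 of the 8 genes called higher (3574 of 19938 genes higher, 6657 lower) and turned the sign of Cdkn2a (-0.09), Cdkn2d (-0.045) and Mdm2 (-0.005); centring moves the median of all genes from 0.26 to -0.085. With treat at a minimum of 1.2-fold, 3 were called higher and 0 lower (4753 and 955 of all genes). On both scalings 2 rose, Cdkn1b and Cdkn1c, and 0 fell. The replicate letter as a block left 1 called lower and 1 fallen on both scalings (1910 of all genes were called lower), since Rb1 had a deposited adjusted p of 0.107, while Cdkn2a was called higher (0.0431). The labels do not say that A and B mark pairs, and the A minus B differences of the 2 lines were nearly uncorrelated across genes (r = 0.0117). Leaving out each sample in turn gave 0 to 3 called higher, 0 called lower, 0 to 3 risen and 0 fallen on both scalings. Each such fit has 1 sample in a line, which is assumed to vary like the other line, and the cause of the lost calls beyond fewer samples was not tested. The counts called among the 8 genes were within 1.5 times the reported ones under quantile and cyclic loess scaling, the dim filter, the mean of rows, trend and robust fits. Of the pathway lists, which were recounted only under quantile scaling, the block and the left-out samples, quantile scaling moved several by more: called higher went from 5 to 0 for pocket and E2F genes, 9 to 3 for S-phase genes, 13 to 8 for p53 targets, 10 to 6 for CIP/KIP regulators and 4 to 1 for senescence markers, and called lower from 0 to 1 for pocket and E2F genes and 3 to 7 for p53 targets. The block moved pocket and E2F genes called higher from 5 to 2. Cdkn2c and Rb1 kept their sign under all 13 alternatives, as did Cdkn1b, Cdkn1c and Cdkn2b.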
